A study of Mus musculus with 18 samples.

Results

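The comparison described here is between periportal and pericentral hepatocytes of fed mice. It rests on 6 of the 18 RNA-seq libraries of the series, 3 periportal and 3 pericentral, chosen by the zone and feeding state in their labels. Of the 28030 genes in the deposited table, 12477 had enough counts to be tested. Both groups were hepatocytes from the livers of male C57BL/6J mice with a WT genotype, aged 12 weeks and kept on normal chow. The mice had been trained for 3 days to a rhythm of 16 h without food and 8 h with food. On the last day they ate for 4 h with 20% sucrose in the water and were killed at clock hour 13. Digitonin, a detergent that opens the cells it reaches, was used to obtain 1 zone at a time, so that zone and the route of isolation cannot be told apart. The other 12 libraries come from the same zones after a fast of 8 h (killed at clock hour 21) or 24 h (killed at clock hour 13), and they enter here only to estimate the spread between replicates and to compare the fed zone difference with the fasted one. The labels do not say whether libraries came from separate mice, so the p-values measure the spread between these libraries, which may be partly technical.

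Blood flows through the liver lobule from the portal vein to the central vein, and oxygen, nutrients and hormones change along the way. Hepatocytes on the portal side are known for making urea and glucose and for breaking down amino acids, and those around the central vein for making glutamine and bile acids and for oxidising foreign compounds. Wnt ligands from endothelial cells of the central vein turn on the pericentral programme through beta-catenin and its TCF partners. HNF4, a nuclear receptor, supports the hepatocyte programme, and E-boxes bind helix-loop-helix factors such as the clock and sterol regulators.

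Promoter windows are shown for genes with the largest fold differences that hold one of 3 searched motifs. The motifs were the TCF/LEF letters CTTTGAT, the HNF4 letters AAAGTCC and the E-box CACGTG, searched on both strands. In reverse, the TCF/LEF letters end in the AAAG with which the HNF4 letters begin, so these matches can overlap, which none did in the windows printed. The windows run from 250 bases before to 50 bases after the start site, in RefSeq's GRCm38.p6. Of the 12 genes named by fold on the periportal side, 10 had a window and 2 of these held a motif (Fgfr2 and Serpina12). On the pericentral side 11 of 12 had a window and 4 held a motif (Slc1a2, Slc13a3, Rdh9 and Cyp2a5). Over all 32851 windows of the table, 3.73% held the TCF/LEF letters, 4.21% the HNF4 letters and 7.15% the E-box. The sequences are written 5′ to 3′ on the strand of the gene, and capitals mark the match. Fgfr2 (chr7:130266759-130267058, minus strand) and Serpina12 (chr12:104044394-104044693, minus strand) were higher in periportal hepatocytes. The first base of the match lies at +28 in Fgfr2 (E-box) and at -172 in Serpina12 (TCF/LEF, in reverse).
Fgfr2: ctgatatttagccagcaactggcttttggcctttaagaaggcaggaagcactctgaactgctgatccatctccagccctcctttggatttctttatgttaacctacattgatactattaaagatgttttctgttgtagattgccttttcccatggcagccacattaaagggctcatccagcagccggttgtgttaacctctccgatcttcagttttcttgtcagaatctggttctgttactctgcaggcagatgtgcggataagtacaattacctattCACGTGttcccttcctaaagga
Serpina12: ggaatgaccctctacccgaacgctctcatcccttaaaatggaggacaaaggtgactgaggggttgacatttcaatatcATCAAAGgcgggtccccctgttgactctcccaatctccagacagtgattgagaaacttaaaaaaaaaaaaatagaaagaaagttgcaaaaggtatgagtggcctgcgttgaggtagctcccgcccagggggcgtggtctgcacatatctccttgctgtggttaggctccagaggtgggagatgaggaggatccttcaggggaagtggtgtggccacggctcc

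Slc1a2 (chr2:102706188-102706487, plus strand), Slc13a3 (chr2:165473148-165473447, minus strand), Rdh9 (chr10:127776155-127776454, plus strand) and Cyp2a5 (chr7:26835089-26835388, plus strand) were higher in pericentral hepatocytes. The match starts at -207 in Slc1a2 (TCF/LEF, in reverse), at -154 in Slc13a3 (E-box), at -201 in Rdh9 (E-box) and at -55 in Cyp2a5 (HNF4).
Slc1a2: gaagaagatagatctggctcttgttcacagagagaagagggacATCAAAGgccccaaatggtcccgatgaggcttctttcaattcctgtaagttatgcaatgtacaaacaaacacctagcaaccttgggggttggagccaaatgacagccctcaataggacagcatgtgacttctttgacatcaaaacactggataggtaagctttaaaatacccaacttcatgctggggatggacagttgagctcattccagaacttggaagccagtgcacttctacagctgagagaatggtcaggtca
Slc13a3: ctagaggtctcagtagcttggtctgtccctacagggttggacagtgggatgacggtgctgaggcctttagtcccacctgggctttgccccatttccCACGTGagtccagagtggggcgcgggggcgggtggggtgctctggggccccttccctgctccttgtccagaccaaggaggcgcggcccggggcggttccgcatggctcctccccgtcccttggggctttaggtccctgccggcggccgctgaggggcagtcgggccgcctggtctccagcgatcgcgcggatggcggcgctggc
Rdh9: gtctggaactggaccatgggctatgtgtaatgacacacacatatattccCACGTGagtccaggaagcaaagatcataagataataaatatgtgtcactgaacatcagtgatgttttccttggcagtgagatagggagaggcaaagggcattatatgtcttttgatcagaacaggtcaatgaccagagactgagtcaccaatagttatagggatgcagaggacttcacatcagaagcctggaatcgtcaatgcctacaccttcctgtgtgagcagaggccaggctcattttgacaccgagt
Cyp2a5: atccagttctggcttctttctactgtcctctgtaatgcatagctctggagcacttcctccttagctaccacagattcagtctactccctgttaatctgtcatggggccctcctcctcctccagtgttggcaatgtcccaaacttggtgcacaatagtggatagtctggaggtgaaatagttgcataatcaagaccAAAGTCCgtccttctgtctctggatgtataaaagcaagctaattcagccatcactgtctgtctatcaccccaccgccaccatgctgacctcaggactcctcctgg
The matches are a description of these letters and were not tested as sites. The table held a window for 73.2% of the genes called on the periportal side, 75.7% on the pericentral side and 77.1% of all genes tested, so motif shares of the zones were not compared.

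The 6 fed libraries held 23785077 to 26278425 estimated counts each, of which mitochondrial genes took 8.06% to 8.84%. The 10 most abundant genes took 18.4% to 19.2% of the counts in pericentral and 22.5% to 24.7% in periportal libraries. On the first principal component of the fed libraries (54.5% of the variance) the zones lay apart, and log2 CPM correlated across genes with r between 0.979 and 0.982 within a zone and between 0.952 and 0.963 across zones. Genes are not independent replicates.

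Hepatocytes of the 2 zones differed in 1000 genes, 8.01% of those tested. These were called by the quasi-likelihood test of edgeR at a Benjamini-Hochberg adjusted p under 0.05, with 485 of them (3.89%) periportal, meaning higher in that zone, and 515 (4.13%) pericentral. The median log2 difference over all genes tested was 0.00, and 50.2% of the genes lay above 0. Differences are given as periportal minus pericentral throughout, in log2, and levels as CPM, the counts brought to the same total in each library with TMM scaling. At a difference of at least 2-fold, 261 of the genes called were higher in periportal and 238 in pericentral hepatocytes. At 16-fold or more there were 23 periportal and 45 pericentral genes, and at 32-fold or more 15 and 20. The share called was highest among abundant genes. Of the 126 genes with a mean of at least 1000 CPM 19.8% were called (11 periportal, 14 pericentral), against 15.5% of those from 100 to 1000 CPM, 7.49% from 10 to 100 CPM, 8.27% from 1 to 10 CPM and 4.17% under 1 CPM. The 485 periportal genes made up 20.8%, 17.2% and 17.9% of all counts in the periportal libraries and 8.8%, 8.79% and 9.58% in the pericentral ones. The 515 pericentral genes made up 9.74%, 12.1% and 10.7% of the counts in their own zone and 3.32%, 3.83% and 3.3% in the other. Leaving out pericentral replicate 2 gave 614 calls and leaving out periportal replicate 1 gave 640, while the fits without any other fed library gave 680 to 795.

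**Figure D1:**
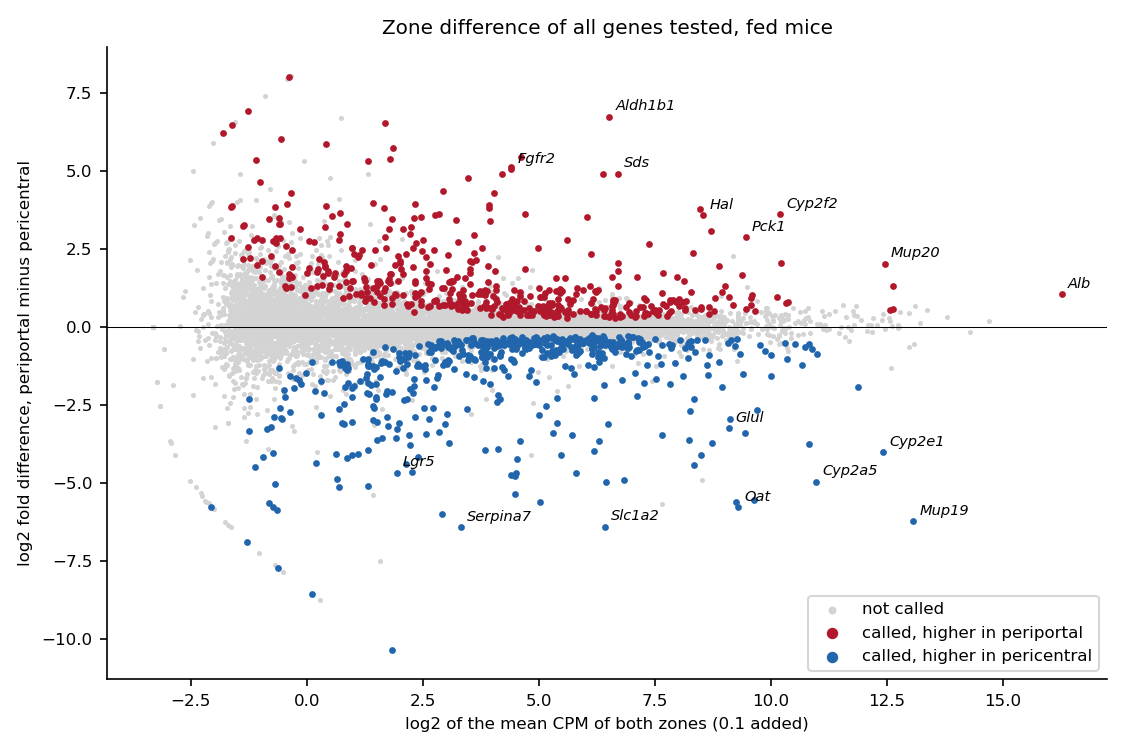
Each point is 1 of the 12477 genes tested, placed by its mean level in both zones (log2 CPM, horizontal axis) and its log2 difference, periportal minus pericentral (vertical axis), in fed mice. The 485 red and 515 blue points are the genes called; Alb lies farthest to the right at a difference of 1.04, and Mup19 and Cyp2e1 are the most abundant of the strongly pericentral genes.

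The zone labels matched their markers. All 9 pericentral markers tested (Cyp2e1, Cyp1a2, Glul, Oat, Slc1a2, Axin2, Lgr5, Gulo and Rgn) were called higher in pericentral libraries, with a median difference of -4.02. Rhbg, another marker on that list, was not analysed here. Of the 9 periportal markers 7 were called higher in periportal libraries (Cyp2f2, Hal, Gls2, Sds, Hsd17b13, Pck1 and Uroc1), and the median was 2.87. The other two, Ass1 and Cps1, were abundant on both sides. Hsd17b13, a lipid droplet enzyme, measured 848, 663 and 730 CPM in the periportal and 78.1, 74.2 and 113 CPM in the pericentral libraries, a difference of 3.08 (SE 0.32, edgeR adjusted p 2.59e-05). Gulo, the enzyme that completes vitamin C synthesis in mice, measured 15.7, 56.3 and 14.2 CPM in periportal and 617, 670 and 564 CPM in pericentral libraries. Its difference was -4.42 (SE 0.64, edgeR adjusted p 0.000636). Rgn, a lactonase in the same pathway, averaged 119 ± 100 CPM against 1273 ± 160 CPM (SD, n = 3 for each mean here and below). No library overlapped with the other zone for these 3 genes, as for 993 of the 1000 genes called and 3532 of the 12477 tested. Hnf4a, a marker of all hepatocytes, averaged 733 ± 70 CPM in periportal and 679 ± 22.5 CPM in pericentral libraries and was not called (edgeR adjusted p 0.716).

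Markers of other liver cell types were low, and higher on the periportal side. The 9 endothelial markers tested summed to 4.22, 6.38 and 5.22 CPM in the pericentral and 18.4, 17 and 19.9 CPM in the periportal libraries. The 12 Kupffer cell and leukocyte markers summed to 1.93 to 3.19 CPM against 7.59 to 12.9 CPM, and the 5 stellate cell and fibroblast markers to 2.56 to 4.17 CPM against 7.26 to 10.6 CPM. The 4 cholangiocyte markers summed to 24.8 to 31 CPM against 35.5 to 57.1 CPM, and the 5 red blood cell markers to 45.6 to 55.1 CPM against 58.8 to 81.7 CPM, most of it from Alas2. In these 5 lists no tested member had a lower periportal mean, and edgeR called 1, Sox9 (0.88, SE 0.19, adjusted p 0.00603), which marks bile duct cells. The fit of the 6 fed libraries alone called more of them, 6 of the 9 endothelial, 7 of the 12 Kupffer cell and leukocyte, 3 of the 5 stellate, 2 of the 4 cholangiocyte and 3 of the 5 red blood cell markers. In the same order DESeq2 called 4, 0, 0, 2 and 2 of them and limma-voom 0, 0, 0, 2 and 0, and 6, 2, 2, 3 and 3 had an unadjusted edgeR p under 0.05. Over all genes, the main fit called 1000 of 12477 (8.01%). The fit of the fed libraries alone called 1150, DESeq2 1315 and limma-voom 1038, and 2615 had an unadjusted edgeR p under 0.05. Des, Acta2 and Hand2 of the stellate list and Epcam and Cftr of the duct list were at 0 in all pericentral libraries. The part of these cells in the periportal calls was not tested. In such bulk libraries, fewer cells of a type and less RNA per cell cannot be told apart.

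**Figure D2:**
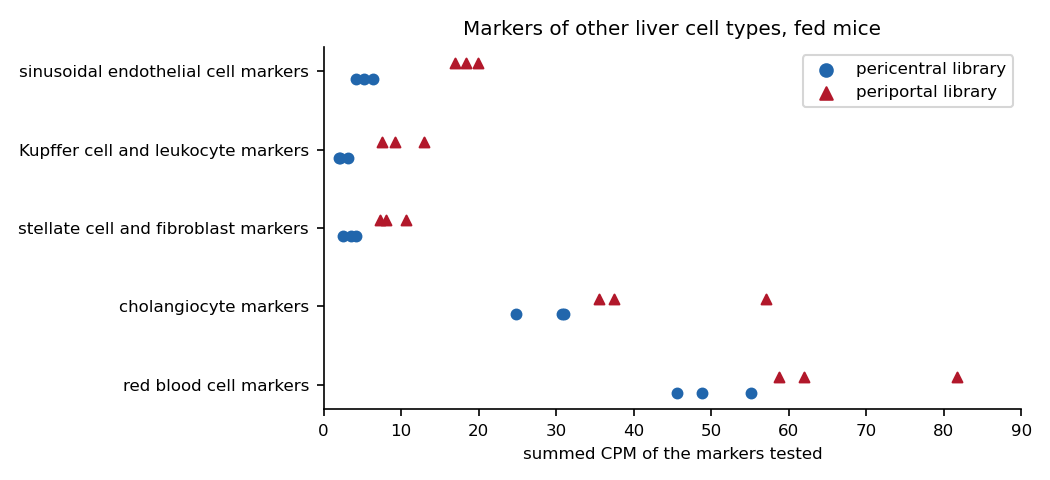
Summed CPM of the tested markers of 5 other liver cell types (horizontal axis), with 1 circle for each pericentral and 1 triangle for each periportal fed library. The triangles lie to the right of the circles in each row, and no sum exceeds 81.7 CPM.

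The largest periportal differences were mostly in genes that were close to absent around the central vein. Aldh1b1 (chr4:45799022-45804604), a mitochondrial aldehyde dehydrogenase, stood at 0.899, 1.5 and 2.73 CPM in pericentral and 232, 150 and 161 CPM in periportal libraries, a fitted difference of 107-fold. Cryl1 (chr14:57274993-57398529), an enzyme of the uronate path, stood at 0.76, 0.512 and 2.02 CPM against 58.3, 42.8 and 41.8 CPM. Fgfr2, a receptor for fibroblast growth factors whose promoter is printed above, stood at 0.899, 1.34 and 1.48 CPM against 45.7, 33.2 and 43.5 CPM. Each of the 3 genes showed a gap of more than 1 order of magnitude between the zones. Genes of this set were named only where the zones did not overlap. Ctsc (chr7:88278085-88310888), the lysosomal protease cathepsin C, measured 3.59, 2.52 and 10.2 CPM against 189, 130 and 165 CPM (4.89, SE 0.63, edgeR adjusted p 0.000264). Reck, a membrane inhibitor of matrix metalloproteinases, measured 0.899, 0.354 and 1.05 CPM against 27.6, 26.4 and 10.1 CPM (4.78, SE 0.43, edgeR adjusted p 7.24e-06). Sulf2, which trims sulfate from heparan chains outside the cell, measured 1.69, 2.52 and 1.44 CPM against 32.8, 26.4 and 25.9 CPM (3.91, SE 0.35, edgeR adjusted p 7.79e-06). That the zones did not overlap in these 3 genes was likewise required by the naming rule. Further genes of the set were the water channel gene Aqp4 (4.89, adjusted p 4.82e-05), Olfm3 (4.34, 7.24e-06) and Serpina12, which encodes vaspin (3.81, 0.000247). Ctnnbip1, which keeps beta-catenin from binding TCF factors, had the smallest adjusted p of the genes named by fold (4.29, SE 0.25, edgeR adjusted p 7.19e-08). Etnppl, which breaks down phosphoethanolamine, was the most abundant of them, at 57.7, 44 and 44 CPM against 713, 609 and 678 CPM (3.78, SE 0.38, edgeR adjusted p 2.55e-05). Sds is described with the amino acid enzymes.

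The pericentral genes with the largest differences included 4 major urinary proteins and 2 transporters, Slc13a3 and Slc1a2. Serpina7 (chrX:139079257-139085236), the thyroxine-binding globulin, measured 20.5, 25.4 and 13 CPM in pericentral and 0.124, 0.32 and 0.22 CPM in periportal libraries (-6.43, SE 0.91, edgeR adjusted p 0.000521). Slc13a3, a sodium-coupled dicarboxylate transporter, measured 14.7, 14.7 and 14.4 CPM against 0.165, 0.439 and 0.0735 CPM (a fitted difference of 64-fold, edgeR adjusted p 0.00569). Lhpp (chr7:132610638-132706420), a phosphohistidine phosphatase, measured 71.4, 65.2 and 53.2 CPM against 0.867, 2.56 and 0.441 CPM (-5.63, SE 0.58, edgeR adjusted p 4.17e-05). As on the portal side, the naming rule took only genes whose zones did not overlap. Rdh9, a retinol dehydrogenase of the endoplasmic reticulum, measured 134, 197 and 178 CPM against 4.37, 8.47 and 3.38 CPM and had the smallest adjusted p of this set (-4.98, SE 0.37, edgeR adjusted p 2.77e-06). Susd4, a regulator of complement, measured 44, 39.1 and 47.1 CPM against 0.908, 3 and 0.808 CPM (-4.79, SE 0.60, edgeR adjusted p 0.000225). Mup19, Mup15, Mup17 and Mup9, carriers of pheromones in urine, differed by -6.24, -5.61, -5.56 and -4.92, and Cyp2a5, a coumarin hydroxylase, by -4.97. These 5 genes have near-identical copies, so their levels are uncertain. Periportal replicate 2 was the highest of the periportal libraries for 11 of these 12 genes, and for 264 of the 515 pericentral genes called (51.3%). Pericentral replicate 3 was in turn the highest pericentral library for 236 of the 485 periportal genes called (48.7%) and for 9 of the 12 named. How far a carry-over of cells between zones enters these values was not tested. Without periportal replicate 2 there were 778 calls, and without pericentral replicate 3 there were 795. The calls of Serpina7 and Slc13a3 were lost under limma-voom (adjusted p 0.0816 and 0.139). Those of Mup15 and Mup17 were lost without periportal replicate 1 (edgeR adjusted p 0.0673 and 0.0537), and that of Mup15 also without periportal replicate 3 (0.059).

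**Figure D3:**
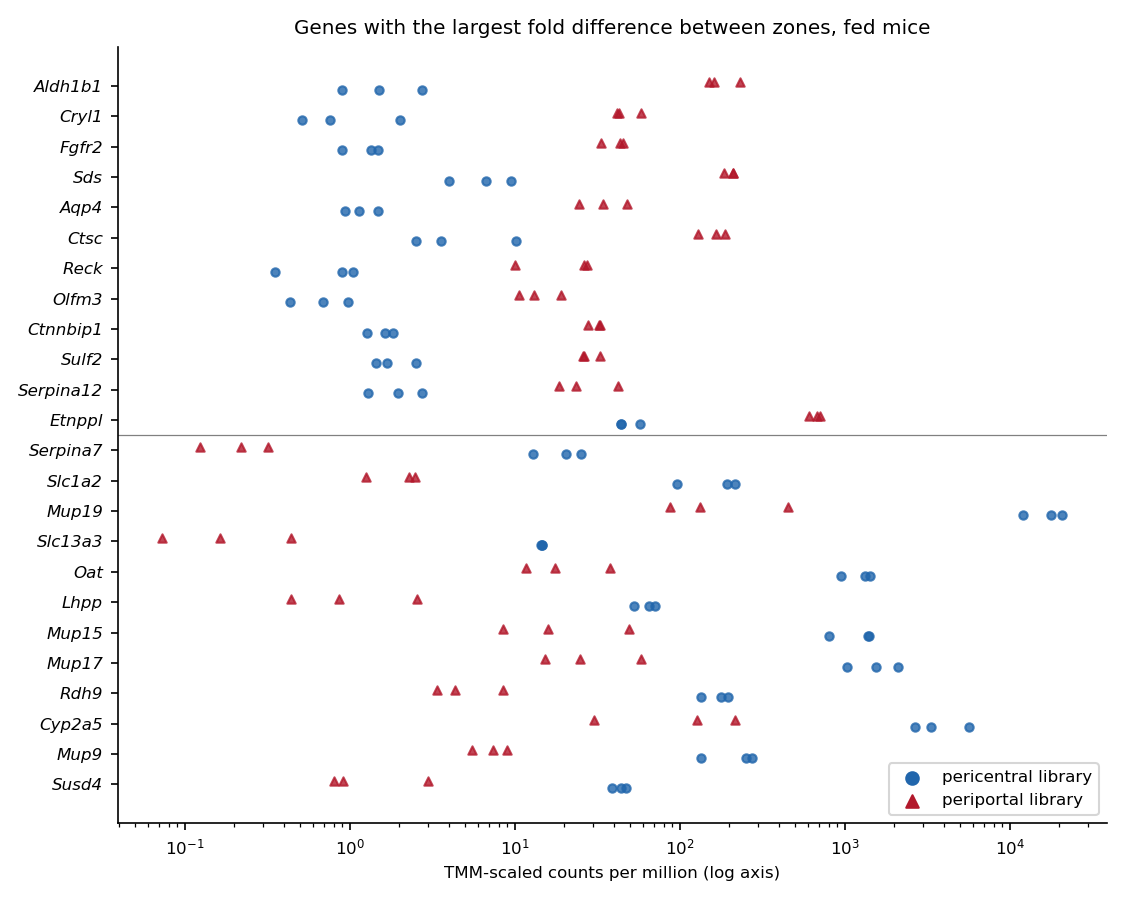
CPM (log axis) of the 12 genes with the largest fold difference in each direction in fed mice, 1 circle for each pericentral and 1 triangle for each periportal library. Periportal genes stand above the line and pericentral genes below it. Genes were named only where circles and triangles did not overlap, as for Aldh1b1 (0.899 to 2.73 CPM against 150 to 232 CPM).

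By absolute level, Alb, the gene for serum albumin, accounted for the largest difference. Alb measured 51668, 48972 and 53767 CPM in pericentral and 116982, 101134 and 99657 CPM in periportal libraries (1.04, SE 0.21, edgeR adjusted p 0.00402). The fitted difference was 2.06-fold, and the zones did not overlap, as for 993 of the 1000 genes called. The vitamin D carrier Gc (7622 ± 633 CPM against 5086 ± 262 CPM), the selenium carrier Selenop (7216 ± 757 CPM against 4973 ± 296 CPM) and Pigr, the receptor that carries IgA into bile (1911 ± 261 CPM against 463 ± 110 CPM), were also higher on the portal side. Mup20, the protein known as darcin, averaged 9008 ± 4560 CPM against 2214 ± 599 CPM, and Mup3 averaged 9000 ± 1572 CPM against 3684 ± 597 CPM. Both lie in the same family as the strongly pericentral Mup19, which averaged 224 ± 198 CPM against 16890 ± 4477 CPM. Toward the central vein, Cyp2e1, which oxidises ethanol, averaged 635 ± 496 CPM on the portal side and 10268 ± 1042 CPM on the central side. Mup11 (-1.94), Cyp2c29 (-3.77) and Cyp2c50 (-2.67) were further abundant pericentral genes, with close copies that make their levels uncertain. Aldh1a1, a retinal dehydrogenase, measured 916, 910 and 1097 CPM against 1813, 3015 and 2061 CPM (-1.24, SE 0.18, edgeR adjusted p 0.000312). The Mup20 call was lost with pericentral replicate 1 or periportal replicate 1 left out (edgeR adjusted p 0.0545 and 0.0587), and that of Gc without pericentral replicates 1 or 2 or periportal replicate 1 (0.0594 to 0.0747). Selenop lost its call without any fed library other than periportal replicate 2 (0.0613 to 0.139), Mup11 without any fed library other than pericentral replicate 1 (0.0537 to 0.13), and Cyp2c29 in the fit of the fed libraries alone (0.0625).

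Nitrogen handling was split between the zones enzyme by enzyme. Of the 11 urea cycle and ammonia supply genes, 4 were higher in periportal (Otc, Asl, Arg1 and Gls2) and 1 in pericentral hepatocytes (Car5a), with a median of 0.28. Together 45.5% of the list was called, against 8.01% of all genes tested. Gls2, the liver glutaminase that releases ammonia from glutamine, measured 502, 535 and 569 CPM in periportal and 95, 93.8 and 125 CPM in pericentral libraries (2.35, SE 0.20, edgeR adjusted p 2.69e-06). The cycle enzymes themselves differed less. Otc measured 383, 398 and 389 CPM against 266, 304 and 236 CPM (0.54, SE 0.12, edgeR adjusted p 0.008). Asl, which splits argininosuccinate, measured 854, 1065 and 1085 CPM against 521, 438 and 614 CPM (0.93, SE 0.21, adjusted p 0.0083). Arg1, which releases urea, differed by 0.76 (SE 0.18, adjusted p 0.0154). Ass1 averaged 4496 ± 817 CPM against 2839 ± 324 CPM and missed the threshold (0.66, SE 0.20, edgeR adjusted p 0.0504). Cps1, the entry enzyme of the cycle, overlapped between the zones (5196 ± 422 CPM against 4292 ± 701 CPM, adjusted p 0.5). Car5a, the mitochondrial carbonic anhydrase that supplies bicarbonate, went the other way, at 45.3, 60.3 and 57.9 CPM against 82.3, 95.2 and 86.6 CPM (-0.69, SE 0.13, edgeR adjusted p 0.00192). The 3 glutamine synthesis genes tested were pericentral: Slc1a2, which imports glutamate, at -6.41, Oat, which makes glutamate from ornithine, at -5.78, and Glul, glutamine synthetase, at -3.25. The Asl call was lost without pericentral replicate 2 (edgeR adjusted p 0.0546), and the Arg1 call without pericentral replicate 1 (0.0801) or periportal replicate 3 (0.0613). Ass1 was called under 7 of 15 alternatives, with an adjusted p of 0.0113 to 0.049.

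Amino acid breakdown had members on both sides. Of 31 genes tested, 8 were higher in periportal and 5 in pericentral hepatocytes, 41.9% in all against 8.01% of all genes tested. The median was 0.19. The 4 histidine breakdown enzymes on the list were all periportal. Hal, the first of them, measured 706, 552 and 812 CPM in periportal and 46.8, 57.7 and 67.1 CPM in pericentral libraries. Uroc1, the next, averaged 749 ± 47.1 CPM against 194 ± 25.5 CPM (1.95, SE 0.14, edgeR adjusted p 8.13e-07), and Amdhd1 and Ftcd differed by 1.59 and 1.48. Sds (chr5:120476526-120483932), which turns serine into pyruvate, measured 187, 211 and 210 CPM in periportal and 3.98, 6.69 and 9.5 CPM in pericentral libraries (4.91, SE 0.49, edgeR adjusted p 2.59e-05). Its neighbour and relative Sdsl (chr5:120458186-120472810) measured 16.7, 20.6 and 27.1 CPM against 1.69, 1.65 and 5.02 CPM (2.95, SE 0.39, adjusted p 0.000257). Gldc, which cleaves glycine, measured 282, 267 and 311 CPM against 41, 35.5 and 61.2 CPM (2.64, SE 0.20, edgeR adjusted p 1.23e-06), and Cbs, which joins homocysteine to serine, differed by 0.79 (adjusted p 0.00088). The pericentral members were the taurine path enzymes Cdo1 and Csad, the proline breakdown enzymes Prodh and Aldh4a1, and Hpd of tyrosine breakdown. Cdo1, cysteine dioxygenase, measured 528, 844 and 767 CPM against 1226, 1506 and 1315 CPM (-0.92, SE 0.17, edgeR adjusted p 0.00271). Csad, the next step toward taurine, averaged 82.2 ± 38.1 CPM against 532 ± 140 CPM (-2.70, SE 0.68, adjusted p 0.0266). Cdo1 and the 8 periportal calls were kept in each of the 15 alternatives. Csad lost its call in 7 of them, among these without pericentral replicate 1 or 3 or periportal replicate 1 or 3 (edgeR adjusted p 0.0575 to 0.112). Hpd lost its call without any of the pericentral replicates or without periportal replicate 1 (0.0522 to 0.123), Prodh without pericentral replicate 2 or 3 or periportal replicate 1 or 3 (0.104 to 0.171), and Aldh4a1 without pericentral replicate 2 (0.0715) or periportal replicate 1 (0.0614).

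The gluconeogenesis genes called were all periportal, and the glycolysis and fructose genes had 1 call in each direction. Of 12 gluconeogenesis genes, 4 were higher in periportal hepatocytes (Pck1, G6pc, Fbp1 and Pcx) and 0 in pericentral ones, 33.3% against 8.01% of all genes, with a median of 0.56. Fbp1, fructose bisphosphatase, was the steadiest, at 1442, 1472 and 1489 CPM against 886, 656 and 747 CPM (0.94, SE 0.12, edgeR adjusted p 9.95e-05). Pck1, the enzyme that commits carbon to glucose, varied more within its zone, at 593, 927 and 2198 CPM against 75.7, 276 and 157 CPM (2.87, SE 0.49, adjusted p 0.0019). G6pc, which releases free glucose, stood at 264, 316 and 548 CPM against 112, 143 and 119 CPM (1.59, SE 0.35, adjusted p 0.00989). Periportal replicate 3 was the highest for both Pck1 and G6pc. Among 16 glycolysis and fructose genes, 1 was periportal (Eno1, 0.49) and 1 pericentral (Pfkfb1, which sets the level of a glycolysis activator, -1.59), 12.5% in all, and the median was 0.19. An unadjusted p under 0.05 was found for 8 of the 16, and DESeq2 called 5. Among all 12477 genes 2615 had such a p, and DESeq2 called 1315. The fit of the 6 fed libraries alone lost the Pck1 call (edgeR adjusted p 0.0927). The G6pc and Pfkfb1 calls were lost without periportal replicate 3 (0.0545 and 0.0595). Pcx, pyruvate carboxylase, lost its call in 8 of 15 alternatives, among them without any fed library other than periportal replicate 2 (0.0762 to 0.182), and Eno1 in 6, among them without any fed library other than pericentral replicate 1 (0.064 to 0.164).

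Of 16 fatty acid synthesis genes edgeR called 0, beside 8.01% of all genes tested. At an unadjusted p under 0.05 there was 1, and DESeq2 called 1 and limma-voom 0. Among all 12477 genes these counts were 2615, 1315 and 1038. The median was -0.22, and the differences ran from -1.10 to 0.59. Fasn, fatty acid synthase, measured 1457, 1527 and 452 CPM in periportal and 1734, 864 and 1211 CPM in pericentral libraries (-0.15, SE 0.38, edgeR adjusted p 0.878). Scd1, which desaturates fatty acids, measured 8187, 11390 and 1583 CPM against 15276, 5762 and 10135 CPM (-0.56, SE 0.53, edgeR adjusted p 0.62). Periportal replicate 3 was the lowest and pericentral replicate 1 the highest library for both genes, and the zones overlapped. Me1, which supplies NADPH, came closest (-1.10, SE 0.33, edgeR adjusted p 0.057), and was called by DESeq2 (0.00547) and without pericentral replicate 2 (0.0309) or periportal replicate 2 (0.0334).

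The cholesterol synthesis genes called were all pericentral. Of 22 genes tested, 18 lay below 0, 4 were higher in pericentral hepatocytes (Fdps, Msmo1, Nsdhl and Hsd17b7) and 0 in periportal ones, with a median of -0.54. The calls made up 18.2% of the list, against 8.01% of all genes tested. Msmo1, a sterol methyl oxidase, measured 135, 135 and 179 CPM in periportal and 260, 271 and 476 CPM in pericentral libraries (-1.16, SE 0.23, edgeR adjusted p 0.0045). Hsd17b7, which acts in the same demethylation, measured 83.8, 73.1 and 80.2 CPM against 139, 99.3 and 136 CPM (-0.66, SE 0.15, edgeR adjusted p 0.0105). The Fdps call (-1.23) was lost in 10 of 15 alternatives, among them without any fed library other than pericentral replicate 2 (edgeR adjusted p 0.0593 to 0.201), and the Nsdhl call (-0.81) in 7, among them without pericentral replicate 2 or 3 or periportal replicate 1 or 3 (0.0602 to 0.109).

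The bile acid genes called were all pericentral, and the exporter and the main importer of bile acids were not called. Of 18 genes tested, 6 were higher in pericentral (Cyp7a1, Cyp8b1, Cyp27a1, Hsd3b7, Akr1c6 and Slco1b2) and 0 in periportal hepatocytes, with a median of -0.14. The share called was 33.3%, against 8.01% of all genes tested. Cyp7a1, the rate-limiting enzyme of bile acid synthesis, measured 11.4, 41.8 and 47.5 CPM in periportal and 312, 464 and 334 CPM in pericentral libraries (-3.46, SE 0.76, edgeR adjusted p 0.0118). Cyp27a1, which starts the alternative path, averaged 204 ± 31.1 CPM against 596 ± 72.7 CPM (-1.55, SE 0.16, edgeR adjusted p 1.98e-05). Hsd3b7, the next shared step, measured 80.7, 93.7 and 89 CPM against 249, 314 and 282 CPM (-1.68, SE 0.18, adjusted p 2.55e-05). The uptake transporter Slco1b2 measured 467, 570 and 505 CPM against 1583, 1851 and 1196 CPM (-1.59, SE 0.16, edgeR adjusted p 1.19e-05). In contrast the sodium-coupled importer Slc10a1 averaged 399 ± 10.2 CPM against 407 ± 99.7 CPM (-0.03, SE 0.16, edgeR adjusted p 0.95), and the exporter Abcb11 553 ± 20.1 CPM against 489 ± 78 CPM (0.18, SE 0.16, adjusted p 0.588). Nr0b2, the repressor SHP that acts on Cyp7a1, measured 49.3, 25 and 29.9 CPM against 6.46, 22.4 and 6.85 CPM (1.55, SE 0.46, edgeR adjusted p 0.0593). It was called without pericentral replicate 2, its highest pericentral library (0.00344), and by DESeq2 and limma-voom (0.0151 and 0.0249). The Cyp8b1 call (-0.99) was lost without pericentral replicate 3 or any periportal replicate (0.0675 to 0.136).

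The drug-metabolising cytochromes P450 and their receptors were mostly pericentral. Of 24 genes, 12 were higher in pericentral and 3 in periportal hepatocytes, 62.5% in all against 8.01% of all genes tested. The median was -0.97. Cyp1a2, which oxidises caffeine, measured 39, 119 and 21 CPM in periportal and 737, 920 and 719 CPM in pericentral libraries (-3.73, SE 0.60, edgeR adjusted p 0.0014). Cyp2c37, an arachidonic acid epoxygenase, measured 30.5, 59 and 28.5 CPM against 744, 871 and 421 CPM (-4.11, SE 0.52, edgeR adjusted p 0.000218). The receptors differed too. Ahr, the dioxin receptor, measured 3.67, 9.19 and 10.4 CPM against 49.7, 57.7 and 60.1 CPM (-2.84, SE 0.43, edgeR adjusted p 0.00091). Nr1i3, the receptor CAR, measured 51.1, 76.8 and 77.9 CPM against 187, 296 and 228 CPM (-1.79, SE 0.26, adjusted p 0.000392). Cyp3a11, which handles many drugs, averaged 6292 ± 589 CPM against 9952 ± 984 CPM and was not called (-0.66, SE 0.25, adjusted p 0.132), but was called by the fit of the fed libraries alone (0.0175). The 3 periportal members were Cyp2f2, which bioactivates naphthalene (2551, 1837 and 2136 CPM against 132, 152 and 254 CPM), Cyp2a12 (1.12) and Cyp2d26 (0.71). Members of the Cyp2c, Cyp2a and Cyp2d groups have close copies, and their separate levels are uncertain. Por, which passes electrons to these enzymes, was pericentral (-0.90, SE 0.24, edgeR adjusted p 0.029), a call lost without pericentral replicate 1 or 2 or any periportal replicate (0.0505 to 0.128). The Cyp2a12 call was lost without pericentral replicate 1 (0.0536).

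The conjugation and heme genes called were each higher around the central vein. Of 24 glutathione and glucuronide conjugation genes 4 were pericentral (Gstm2, Gstm6, Gsta3 and Ugt1a1) and 0 periportal, 16.7% against 8.01% of all genes, with a median of -0.20. Gstm2, a glutathione transferase, measured 5.69, 11.9 and 3.01 CPM in periportal and 84.1, 77.7 and 55.9 CPM in pericentral libraries (-3.40, SE 0.56, edgeR adjusted p 0.00164). Of 12 heme genes 4 were pericentral (Alad, Uros, Cpox and Blvrb) and 0 periportal, 33.3% of the list, with a median of -0.44 and 1 gene above 0. Blvrb, a biliverdin reductase, measured 39.4, 39.5 and 30.4 CPM against 128, 151 and 119 CPM (-1.87, SE 0.19, edgeR adjusted p 1.98e-05). Alad, the second enzyme of heme synthesis, measured 69.1, 68.4 and 69.7 CPM against 98.1, 112 and 103 CPM (-0.60, SE 0.10, adjusted p 0.000819), while Alas1, the first, was not called (-0.71, SE 0.43, adjusted p 0.392). Alas1 was called by the fit of the fed libraries alone (edgeR adjusted p 0.0243). The Ugt1a1 call was lost without pericentral replicate 2 or 3 or periportal replicate 3 (0.0504 to 0.102), and the Uros call without any fed library other than pericentral replicate 3 (0.0638 to 0.121).

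The share of mitochondrial genes called ranged from 0% for the subunits of the mitochondrial genome to 45.5% for the tricarboxylic acid cycle, beside 8.01% of all genes. Fatty acid oxidation and ketogenesis had 1 periportal and 1 pericentral call among 20 genes (10%) and a median of -0.01. Ppargc1a, a coactivator of mitochondrial genes, measured 10.4, 13.5 and 10.6 CPM in periportal and 6.15, 3.5 and 6.5 CPM in pericentral libraries (1.09, SE 0.24, edgeR adjusted p 0.00945). Cpt1a, which gates the entry of fatty acids into mitochondria, was not called (0.15, edgeR adjusted p 0.631). Of 24 nuclear subunits of the respiratory chain, 23 lay above 0 with a median of 0.25, but only Uqcrc1 (0.31, adjusted p 0.031) and Uqcrfs1 (0.33, adjusted p 0.0275) of complex III were called by edgeR (8.33%). An unadjusted p under 0.05 was found for 11 of the 24, DESeq2 called 6, and the fit of the fed libraries alone called 0. Over all genes these counts were 2615, 1315 and 1150, with 12477 tested in the main fit. Ndufa9 and Cox5b were under 1 CPM in both zones, low for such subunits in liver, so their values are uncertain. The other 22 subunits all lay above 0 (0.06 to 0.36, median 0.25). The 13 subunits coded by the mitochondrial genome had 0 calls by edgeR, DESeq2 and limma-voom and 0 at an unadjusted p under 0.05, a median of 0.12 and a range of -0.03 to 0.20. The Uqcrc1 call was lost without any 1 of the fed libraries (0.066 to 0.118), and the Uqcrfs1 call without pericentral replicate 1 or 3 or periportal replicate 2 or 3 (0.0906 to 0.114). Of 11 tricarboxylic acid cycle genes, a list chosen after its values were seen, 4 were periportal (Ogdh, Suclg1, Sucla2 and Idh3g, 0.29 to 0.52) and 1 pericentral, Cs, the citrate synthase (-0.64, SE 0.16, edgeR adjusted p 0.0177). Ogdh, a subunit of the oxoglutarate dehydrogenase complex, measured 203, 187 and 232 CPM in periportal and 150, 137 and 147 CPM in pericentral libraries (0.52, SE 0.09, edgeR adjusted p 0.00162) and was called in each of the 15 alternatives. The other calls were each lost without at least 3 of the fed libraries in turn (edgeR adjusted p 0.0554 to 0.167).

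Targets and feedback genes of the Wnt pathway were mostly pericentral, with an inhibitor on the other side. Of 11 tested, 8 were higher in pericentral hepatocytes (Axin2, Lgr5, Tbx3, Notum, Sp5, Rnf43, Tcf7 and Tnfrsf19) and 1 in periportal ones (Ctnnbip1), with a median of -2.53. The share called was 81.8%, against 8.01% of all genes tested. Lgr5, a receptor for R-spondins that strengthens Wnt signals, measured 7.57, 8.27 and 5.76 CPM in pericentral and 0.371, 0.32 and 0.147 CPM in periportal libraries (-4.68, SE 0.43, edgeR adjusted p 7e-06). Tbx3, a transcription factor, measured 32.7, 53.6 and 45.5 CPM against 1.24, 3 and 0.882 CPM (-4.69, SE 0.65, adjusted p 0.000479). Sp5, a target that represses other targets, had 50, 54 and 52 counts in the pericentral libraries and 0 in each periportal one, and was at least 16.5-fold higher in pericentral libraries against a floor of 3 counts per library. The feedback inhibitors covered several steps. Axin2, of the complex that degrades beta-catenin, averaged 0.615 ± 0.451 CPM on the portal side and 8.58 ± 0.562 CPM on the central side (-3.79, SE 0.51, edgeR adjusted p 0.000204). Notum, which inactivates Wnt ligands, averaged 10.5 ± 4.92 CPM against 60.7 ± 5.28 CPM (-2.53, SE 0.33, adjusted p 0.000227), and Rnf43, which removes Wnt receptors, 10 ± 1.95 CPM against 30.2 ± 3.36 CPM (-1.59, SE 0.25, adjusted p 0.000708). The inhibitor Ctnnbip1 had the opposite zone, at 32.8, 28 and 32.4 CPM in periportal and 1.28, 1.65 and 1.83 CPM in pericentral libraries. These 9 calls were kept in each of the 15 alternatives.

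Signalling, plasma protein and oxygen-responsive genes had 1 to 3 calls a list, beside a share of 8.01% among all genes. Of 14 genes of insulin, glucagon and growth signalling, 3 were periportal (Fgfr2, Igf1 and Met) and 0 pericentral, 21.4% in all, with a median of 0.17. Igf1, insulin-like growth factor 1, measured 671, 481 and 587 CPM in periportal and 277, 304 and 328 CPM in pericentral libraries (0.93, SE 0.15, edgeR adjusted p 0.00091). The insulin receptor Insr averaged 111 ± 6.94 CPM against 97.3 ± 3.93 CPM and the glucagon receptor Gcgr 180 ± 5.38 CPM against 195 ± 17.8 CPM, and neither was called (adjusted p 0.19 and 0.65). Of 25 plasma proteins, Alb was the 1 called (4%), and the median was 0.27. C3, the central complement protein, averaged 12372 ± 1616 CPM against 8584 ± 1342 CPM (0.53, SE 0.20, edgeR adjusted p 0.137), and Apoa1 overlapped (0.07, adjusted p 0.906). Of 12 oxygen-responsive genes 1 was called (8.33%). Egln3, an oxygen-sensing prolyl hydroxylase, measured 8.13, 10.9 and 5.77 CPM in periportal and 21.2, 23.1 and 17.9 CPM in pericentral libraries (-1.33, SE 0.24, edgeR adjusted p 0.00197). Vegfa was close to 0 (-0.04, adjusted p 0.924), and the median of the list was 0.02. The Met call (0.40, adjusted p 0.0482) was lost without any 1 of the fed libraries (0.0751 to 0.196).

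Immediate early and heat shock genes, which can respond to cell isolation, had 1 call in each direction among 15 genes (13.3% against 8.01% of all genes) and a median of 0.74. Split after the values were seen, the 11 immediate early genes had a median of 0.78, with 10 above 0, and the 4 heat shock genes a median of -0.88, with 3 below 0. Zfp36, which destabilises messages, measured 25.1, 37.8 and 28.3 CPM in periportal and 15.3, 12.9 and 11.8 CPM in pericentral libraries (1.19, SE 0.27, edgeR adjusted p 0.0113). Dnajb1, a cochaperone, measured 31.4, 30.5 and 31.9 CPM against 52, 46.9 and 65.3 CPM (-0.81, SE 0.24, adjusted p 0.0482). Fos, Junb, Egr1, Atf3 and Btg2 had positive differences of 0.78 to 1.31 without passing the test, and Hsph1 and Hspa1b, both chaperones, had negative ones of -1.12 and -0.95 that did not pass either. Hspa1a, a near-identical copy of Hspa1b, went the other way (1.39) and was not called. Reads shared between such copies make their levels uncertain. Outside the list, 3 of the 4 tested genes of the Hspb series, a family chosen after its values were seen that holds small heat shock proteins, were pericentral (Hspb1, Hspb6 and Hspb8), and the Hspb1 and Hspb8 calls were lost without at least 1 fed library. Hspb6 measured 5.12, 4.55 and 5.11 CPM in periportal and 11.4, 10.5 and 10.2 CPM in pericentral libraries (-1.12, SE 0.19, edgeR adjusted p 0.00117). The part of isolation stress in the zone calls was not tested. The Zfp36 call was lost without pericentral replicate 2 or 3 or periportal replicate 2 (edgeR adjusted p 0.0519 to 0.0561), and the Dnajb1 call without any 1 of the fed libraries (0.065 to 0.171).

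**Figure D4:**
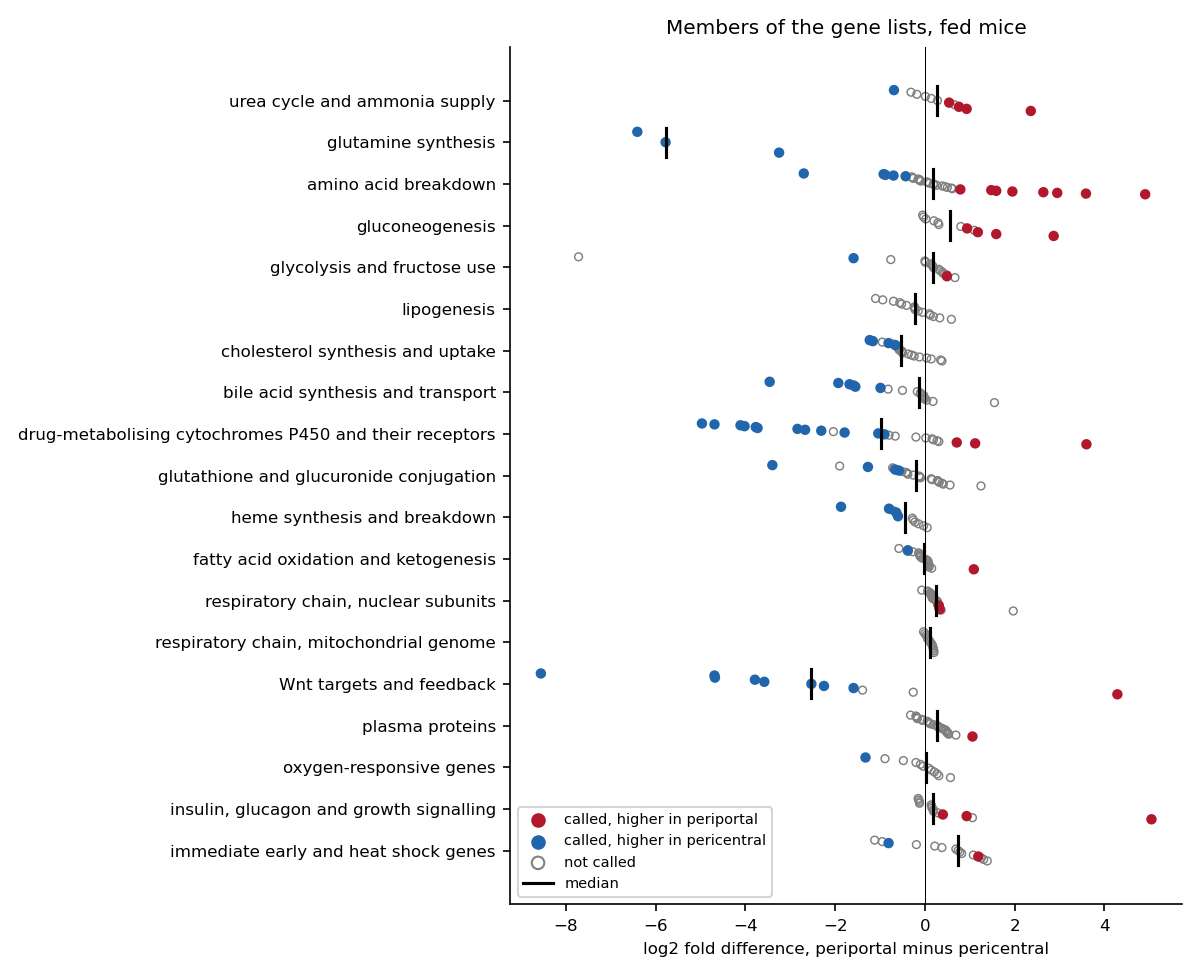
Log2 difference, periportal minus pericentral, of each tested member of 19 gene lists in fed mice. Filled red and blue points were called higher in periportal and pericentral hepatocytes, open circles were not called, and black bars are medians, which run from -5.78 (glutamine synthesis) to 0.74 (immediate early and heat shock genes).

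Whether the fed zone difference departed from that in fasted mice was tested as the fed difference minus the mean of the differences after 8 h and 24 h. By edgeR 3 genes were called, 0.024% of those tested, and 827 of the 12477 had an unadjusted p under 0.05. Prpf4b, a kinase of the splicing machinery, measured 24.8, 24.9 and 22.3 CPM in fed periportal and 37.1, 38.4 and 31.5 CPM in fed pericentral libraries. After 8 h Prpf4b measured 40.1, 33.5 and 36.8 CPM in periportal and 29.2, 29 and 34.7 CPM in pericentral libraries, and after 24 h 30.8, 33.9 and 30.7 CPM against 27.4, 23 and 27.1 CPM. Its periportal libraries were therefore the lower ones in fed mice, and on average the higher ones in both fasted states. The fed zone difference was -0.57 (edgeR adjusted p 0.00279). The differences after 8 h and 24 h were 0.25 and 0.30, and neither was called (edgeR adjusted p 0.192 and 0.149). The test of fed against fasted gave -0.85 (SE 0.13, edgeR adjusted p 0.0302). Ctnnbip1 had zone differences of 4.29, 2.97 and 1.92 in the 3 states (1.85, SE 0.29, edgeR adjusted p 0.0302), with pericentral levels of 1.28, 1.65 and 1.83 CPM in fed libraries, 3.44, 3.12 and 3.4 CPM after 8 h and 4.92, 10.1 and 4.55 CPM after 24 h. The order of its zones was the same in each state. Scg2, which encodes a secretogranin, had 0 counts in the fed pericentral libraries and 11.5, 6.3 and 17.8 counts in the periportal ones, which was at least 3.79-fold higher against a floor of 3 counts per library. In the fasted libraries it had 4.25 to 19 counts. These 3 calls shared the fed libraries with the fed comparison, and they were lost under limma-voom (adjusted p 0.0961 to 0.137). Without pericentral replicate 1, 2 or 3 or periportal replicate 1, 2 or 3 of the fed groups the adjusted p of these genes ranged from 0.0461 to 0.267, and the 1 call kept was that of Prpf4b without pericentral replicate 3.

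**Figure D5:**
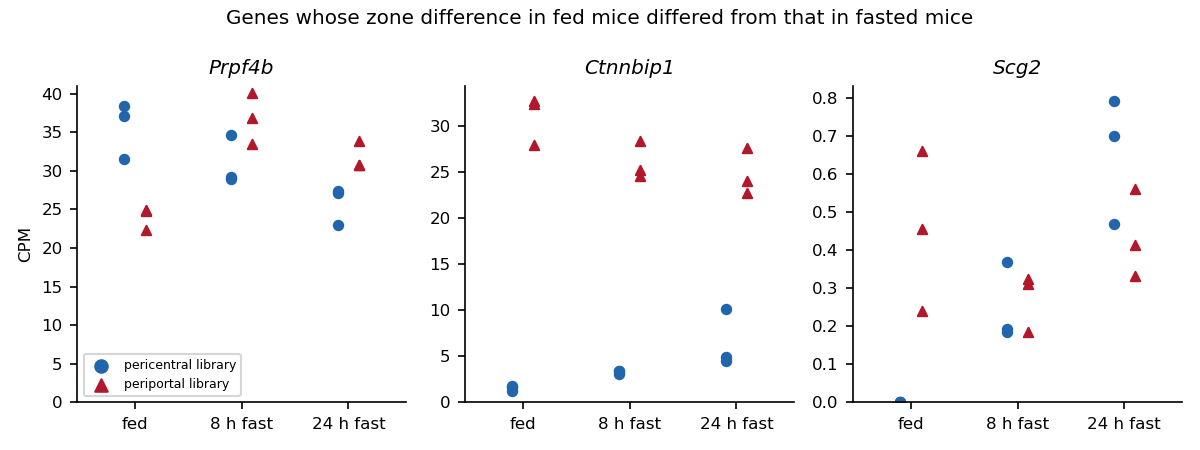
CPM of Prpf4b, Ctnnbip1 and Scg2 (1 panel each, vertical axes differ) in fed mice and after 8 h and 24 h of fasting, with circles for pericentral and triangles for periportal libraries. In fed mice the Prpf4b triangles (22.3 to 24.9 CPM) lie below the circles (31.5 to 38.4 CPM), after 8 h they overlap, and after 24 h they lie above (30.7 to 33.9 CPM against 23 to 27.4 CPM).

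For the other genes named by fold the fed and fasted zone differences were not shown to differ. Aqp4 had differences of 4.89 in fed mice, 4.42 after 8 h and 1.75 after 24 h, and Ctsc had 4.89, 4.19 and 2.50. On the pericentral side Oat had -5.78, -4.78 and -4.43, and Lhpp had -5.63, -4.77 and -4.21. These genes were taken for their size in fed mice, so smaller values in the fasted states are given as a description.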

How the data were processed

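Per the labels' protocols, RNA was isolated with TRIzol and columns and sequenced from NEBNext Ultra libraries. A single table deposited by the authors gives the estimated count of each gene in the 18 libraries. The submitters' processing notes name kallisto 0.46.0 and the mouse build mm10, and the use of strand is not given in the sources used here. Estimated counts need not be whole, and reads shared by near-identical or overlapping genes are split among them. Counts were rounded to whole numbers, and 0 rows named no gene. Of 28030 gene identifiers, 27566 were paired with a symbol and a GRCm38 position through GENCODE M21.

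All 18 libraries were fitted with edgeR 4.0.16 in R 4.3.3 (filterByExpr, TMM scaling, robust quasi-likelihood, 1 coefficient for each of 6 groups, no covariates), and p-values were adjusted over the 12477 genes tested by the Benjamini-Hochberg method at 0.05. The standard error is the log2 difference divided by the square root of F. The depth of 23785077 to 26278425 counts and the 3 libraries per group set the precision. On simulated counts for the fed comparison (12284 genes), 11 of 50 genes changed 1.5-fold, 40 of 50 changed 2-fold, 46 of 50 changed 4-fold and 50 of 50 changed 8-fold were called, with 8 false calls. The simulated spread followed the trend with level and not each gene's own, and only genes with a mean of at least 1 CPM were changed. Recovery in the real libraries may therefore be lower. Alternatives were DESeq2 1.42.0 (size factors and test), limma-voom (limma 3.58.1), other filters and scaling, fits of the fed libraries alone, a replicate block, and leaving out each fed library.

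Genes named are the 12 with the largest log2 difference in each direction (called, at least 10 CPM in the higher zone, no overlap), the 8 with the largest CPM difference, members of 24 gene lists (358 of 380 tested), zone markers and genes called in the fed against fasted test. Members of 19 families, chosen after their values were seen, were named too. The receptors Avpr1a, Npr2 and Sstr2 were picked outside these rules. Some genes that these rules name are not reported here. The comparison, the lists and these rules were chosen with earlier results of these data known. No 2 libraries of a zone were alike beyond sampling noise (chi-square per gene 42.6 to 81.6). Same-numbered libraries of the zones did not deviate together (r of -0.0112, 0.00674 and 0.00249), so they were not paired.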

Additional observations from a re-analysis of the deposited data

Results flagged for a closer look

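The zone difference of 3 genes in fed mice departed from that in fasted mice by a test of the difference itself, the fed log2 zone difference minus the mean of those after 8 h and 24 h. The values were -0.85 for Prpf4b, 1.85 for Ctnnbip1 and 6.69 for Scg2, each with an edgeR adjusted p of 0.0302. Under other settings the adjusted p lay between 1.5e-05 and 0.265 for Prpf4b (called in 6 of 13), between 9.94e-06 and 0.356 for Ctnnbip1 (5 of 13) and between 0.0105 and 0.356 for Scg2 (4 of 12). Scg2 had at most 17.8 counts in a fed library, and its fitted value is no bound because 1 fed group is at 0. The 8 h groups also differed from the fed ones in clock hour, and the part of this was not tested.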

How the results depend on the processing

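With all fed libraries kept, the count of genes called ran from 860 (no filter) to 1315 (DESeq2 test), beside 1000; the replicate block gave 962, and in the fed libraries alone 918 with the block against 1150 without. Leaving out single fed libraries gave 614 to 795 calls, 277 to 392 of them periportal and 337 to 418 pericentral. For the fed against fasted test, DESeq2 called 15 genes, limma-voom 0 (861 at an unadjusted p under 0.05), the replicate block 0 (911), and single libraries left out 0 to 1. Same-numbered libraries of the zones did not deviate together, and the labels do not say whether they share a mouse or a day. Of 212 named genes tallied, the block lost 13 calls and gained 2. In the fed libraries alone the block lost 30 and gained 6 among 211 of them. Leaving out single fed libraries lost 27 to 43 calls. Directions changed for 5 genes that were not called. Leaving out single libraries moved Ttr from -0.04 to 0.15 (below 0 without pericentral replicate 1, -0.01, or periportal replicate 1), Apoa1 from -0.10 to 0.44 (below 0 without pericentral replicate 1, -0.08, or 2), Fasn from -0.42 to 0.23 (above 0 without pericentral replicate 1, 0.14, or periportal replicate 3), Vegfa from -0.22 to 0.06 (above 0 without pericentral replicate 1 or periportal replicates 1 and 3), and Slc10a1 from -0.20 to 0.16 (above 0 without pericentral replicate 3). Slc10a1 was 0.00 with either block fit. Of 405 medians of lists under these settings, 380 moved by less than the spread between replicates. The cause was not tested. Differences under 2-fold are where depth and 3 libraries a group limit the calls most.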

Other observations

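Families chosen after their values were seen held members on opposite sides of the lobule, and their counts are a description. Of 20 major urinary protein genes, 2 were periportal (Mup3 and Mup20) and 7 pericentral, 45% in all against 8.01% of all genes tested. Reads shared between these copies make their levels uncertain, and 5 of the 9 calls were lost without at least 1 fed library. The 3 TCF factors tested, which act with beta-catenin, were split: Tcf7 differed by -2.25, and Tcf7l1 and Tcf7l2 by 3.14 and 0.70. Tcf7l1 measured 7.26, 6.91 and 8.12 CPM in periportal and 0.864, 0.315 and 1.32 CPM in pericentral libraries (SE 0.35, edgeR adjusted p 2.55e-05). Of the Groucho corepressors, Tle4 was periportal (1.59) and Tle1 pericentral (-0.67). Of the Wnt co-receptors, Lrp6 was periportal (0.42) and Lrp5 pericentral (-0.91). The adhesion genes Cdh1 and Cdh2 were also opposed. Cdh1, E-cadherin, measured 143, 98.1 and 120 CPM in periportal and 7.22, 9.06 and 15.3 CPM in pericentral libraries (3.52, SE 0.30, edgeR adjusted p 7.24e-06). Cdh2, N-cadherin, measured 75.3, 73.3 and 82.1 CPM against 109, 102 and 115 CPM (-0.50, SE 0.10, edgeR adjusted p 0.00345). Aqp9, a glycerol channel, was pericentral (-1.57) beside the periportal Aqp4. The calls of Tcf7l2 and Lrp6 were lost without pericentral replicate 2 or periportal replicate 3 (edgeR adjusted p 0.0691 to 0.112), that of Tcf7l2 also without periportal replicate 2 (0.0595), and that of Tle1 without pericentral replicate 3 or periportal replicate 1 or 2 (0.0616 to 0.0776).

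In the SLC22 and SLC16 transporter families, also chosen after their values were seen, more calls were pericentral than periportal. Of 14 SLC22 organic ion transporters 7 were pericentral and 0 periportal, 50% in all against 8.01% of all genes tested. Of these calls 4 were lost without at least 1 fed library. Slc22a3 had 201, 229 and 123 counts in the pericentral libraries and 0 in each periportal one, at least 58.1-fold higher in pericentral libraries against a floor of 3 counts per library. Of 10 SLC16 monocarboxylate transporters 6 were pericentral and 1, Slc16a6, periportal (2.71, SE 0.29, edgeR adjusted p 2.2e-05), 70% in all. Without at least 1 fed library 3 of the pericentral calls were lost. Of 3 receptors picked outside the naming rules, 2 were on the central side. These were the vasopressin receptor Avpr1a (2.3 ± 1.94 CPM against 43.8 ± 14.5 CPM) and the natriuretic peptide receptor Npr2 (4.91 ± 1.9 CPM against 84.6 ± 7.81 CPM). The somatostatin receptor Sstr2 was on the portal side (6.07, 5.15 and 7.38 CPM against 0.173, 0 and 0 CPM). Of 42 proteasome subunits, a family also chosen after its values were seen, 10 were called, 23.8% against 8.01% of all genes tested. Each was pericentral and by small margins (-0.31 to -0.43), beside 1 of 81 cytosolic ribosomal proteins (1.23%). For 8 of these 10 the call was lost without at least 1 fed library. Of the interferon-regulatory factors, Irf5, Irf7 and Irf8 were periportal. The Irf8 call was lost without periportal replicate 1 (edgeR adjusted p 0.0624). Irf8 is also a leukocyte gene, and the leukocyte markers summed to 7.59 to 12.9 CPM in periportal against 1.93 to 3.19 CPM in pericentral libraries, whose part in this was not tested.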
